A study of Mus musculus with 16 samples.

Results

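Zbtb16, Sall4, Taf4b, Lin28a, Nanos2 and Bmi1 are 6 genes that keep mouse spermatogonia undifferentiated or self-renewing. They were grouped on the premise that they act apart from the growth factor GDNF. That premise may not hold for each of them and was not tested here. Every probe set that the array's annotation pairs with 1 of these 6 genes and no other was taken, which gave 12 of the 45037 probe sets other than controls. Zbtb16 and Taf4b had 3 probe sets each, and Sall4, Lin28a and Bmi1 had 2 each. For Nanos2 the annotation table used here names 0 probe sets, so its level was not analysed here.

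The study measured 16 Affymetrix mouse expression arrays of spermatogonial stem cell cultures from C57BL/6 mice. The cultures were started from testis germ cells enriched for the surface protein THY1 and kept in serum-free medium with 20 ng/ml GDNF, 150 ng/ml of its soluble coreceptor GFRA1 and 1 ng/ml FGF2, so every group, the control included, had GDNF throughout. Cells were treated for 30 h with a control siRNA, an Etv5 siRNA, a Bcl6b siRNA or a Pou3f1 siRNA, and 4 arrays were made of each. These 3 targets are transcription factors whose messages GDNF raises, and each siRNA lowers its target only for a time and only in part. The RNA came from whole transfected cultures. In such bulk RNA, fewer cells of a type and less RNA per cell cannot be told apart. The labels do not say whether the 4 replicates were separate cultures, so the p-values measure the spread between these arrays only.

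As background, the spermatogenic lineage is maintained by a small pool of undifferentiated spermatogonia that either renew or commit to differentiation. ZBTB16, also known as PLZF, is a BTB zinc finger repressor whose loss drains this pool. SALL4 is a zinc finger factor that binds PLZF and the NuRD deacetylase complex. BMI1 is a subunit of Polycomb repressive complex 1, and TAF4B is a gonad-enriched subunit of the general transcription factor TFIID. LIN28A is an RNA-binding protein that blocks maturation of let-7 microRNAs, and NANOS2 is an RNA-binding protein that recruits the CCR4-NOT deadenylase to messages of differentiation and meiosis.

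Each knockdown lowered its own target's mean against control by limma (log2 differences of -1.49 ± 0.22 SE for Etv5, -1.01 ± 0.12 for Bcl6b and -0.68 ± 0.099 for Pou3f1, with adjusted p of 0.00268, 0.000443 and 0.00227). The library labelled Bcl6b knockdown replicate 1 stood apart from the rest. Its 3′ probe sets exceeded its 5′ probe sets by 1.03 for Gapdh and 3.08 for Actb on the log2 scale, where no other array exceeded -0.45 and 0.76, the pattern of RNA read mostly from its 3′ end. Averaged over its 15 pairings, its log2 values correlated with r = 0.975, and every other array reached at least 0.996. With it in the fit, the median residual SD over the tested probe sets was 0.160 log2, and without it 0.0937. Each result below is therefore given with all 16 arrays and with 15. The 3 knockdowns are set against the same 4 control arrays, so their differences are not independent of each other.

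With 15 arrays, without Bcl6b knockdown replicate 1, Zbtb16 was higher and Sall4 and Bmi1 were lower in the Etv5 knockdown than in control, by sizes of 0.14 to 0.25 log2. Zbtb16 was also higher in the Pou3f1 knockdown, and none of these genes passed the test in the Bcl6b knockdown. With all 16 arrays given equal weight none passed in any comparison, and with limma's array weights, which count a deviating array for less, 5 probe sets passed in the Etv5 and 1 in the Pou3f1 knockdown against control. Of the 12 probe sets 11 passed the filter on dim values, which needs at least 4 arrays above their own array's median. Among these 11, limma called 0 with all 16 arrays at an adjusted p under 0.05 in the Etv5, Bcl6b and Pou3f1 knockdowns against control, where 1.26%, 3.98% and 1.36% of all tested probe sets were called. At an unadjusted p under 0.05 the counts were 1, 2 and 0 of 11. With 15 arrays the called counts were 3, 0 and 1 of 11, beside 7.28%, 13.2% and 8.86% of all probe sets, and the unadjusted counts were 6, 1 and 2. The groups of the Etv5 knockdown and control did not overlap for 4 of the 11 with 16 or 15 arrays, where 15.2% of all tested probe sets did not overlap. For the Pou3f1 knockdown this held for 1 of 11, beside 16.1%. For the Bcl6b knockdown it held for 1 of 11 with 16 arrays and 2 of 11 with 15, beside 15.9% and 28.3%. The members' shares in the Bcl6b and Pou3f1 knockdowns were thus near or below those of all probe sets, and a count of 3 or 4 of 11 rests on few probe sets of the same genes.

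**Figure D1:**
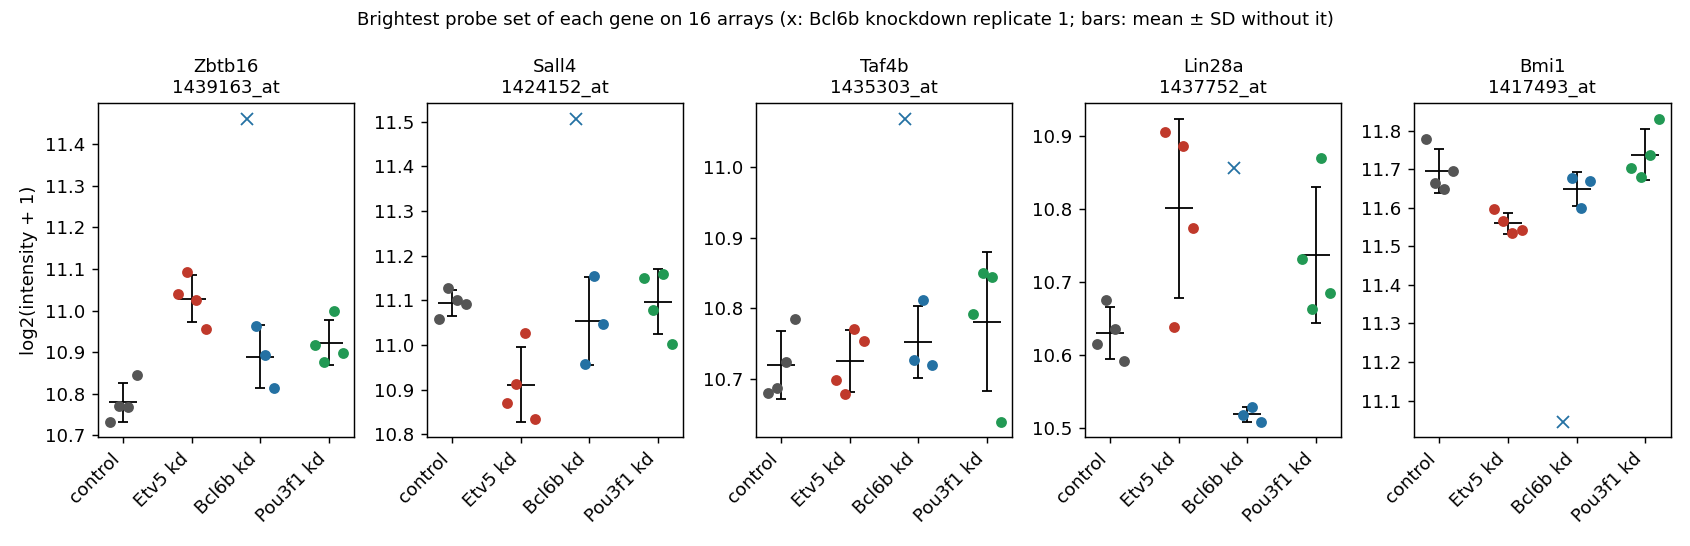
Log2(intensity + 1) of the brightest probe set of each of the 5 measured genes on every array (vertical axis, its range differs between panels), by group (kd, knockdown), 1 point an array, with the mean ± SD drawn without Bcl6b knockdown replicate 1, which is the cross. Zbtb16 in the Etv5 knockdown lies above all 4 control arrays (intensity 1985 to 2184 against 1699.6 to 1838), and the cross is the highest Zbtb16 value and the lowest Bmi1 value of the 16 arrays.

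The brightest Zbtb16 probe set, 1439163_at, had intensities of 1699.6, 1747, 1743 and 1838 on the 4 control arrays, a mean of 1757 ± 58.3 (SD, n = 4). In the Etv5 knockdown the values were 2104, 2184, 2085 and 1985 (mean 2089 ± 81.7, n = 4). In the Pou3f1 knockdown they were 1934, 1879, 2045 and 1906 (mean 1941 ± 73.0, n = 4). Every array of both groups lay above every control array. In the Bcl6b knockdown replicate 1 read 2819.9 and the other 3 arrays 1995, 1899 and 1798 (mean of the 3, 1897 ± 98.5), of which the last lay inside the control range. The log2 difference against control was 0.25 ± 0.041 (SE) for the Etv5 knockdown with 15 arrays, with a 95% interval of 0.16 to 0.34, a rise of 18.9% and a limma adjusted p of 0.0014. With all 16 arrays the difference was the same, the SE 0.10 and the adjusted p 0.429. A fit of the Etv5 knockdown and control arrays alone, which holds no Bcl6b array, gave an adjusted p of 0.00538. Zbtb16 also rose in the Pou3f1 knockdown with 15 arrays, by 0.14 ± 0.041 (adjusted p = 0.0412), against an adjusted p of 0.782 with 16. With a further array left out the call in the Etv5 knockdown held in 15 of 15 cases, and the smaller one in 7 of 15 (adjusted p = 0.0345 to 0.124). The latter ended without control replicate 1, 2 or 3, Pou3f1 knockdown replicate 1, 3 or 4, Etv5 knockdown replicate 1 or Bcl6b knockdown replicate 3.

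The Bcl6b knockdown differed from control in Zbtb16 by 0.25 (adjusted p = 0.181) with replicate 1 and by 0.11 (adjusted p = 0.117) without it, so the mean moved by more than 1.5 times with that array. In order of level over 15 arrays Zbtb16 was highest in the Etv5 knockdown, then the Pou3f1 knockdown, the Bcl6b knockdown and control. No neighbours in that order passed the test against each other (Etv5 over Pou3f1 knockdown 0.11, adjusted p = 0.166). The other Zbtb16 probe sets had the same sign in the Etv5 knockdown but were not called. For 1419874_x_at the difference with 15 arrays was 0.14 (adjusted p = 0.0569), and for 1427638_at it was 0.20 (adjusted p = 0.238), with every Etv5 knockdown array, at 139 to 157, above every control array, at 113 to 134. In the Pou3f1 knockdown they differed from control by 0.11 and 0.01. An ending of _x_at marks a probe set whose probes may also match other transcripts.

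Sall4, whose product partners with PLZF, went the other way in the Etv5 knockdown. Its brightest probe set, 1424152_at, read 2131, 2237, 2195 and 2179.8 in control (mean 2186 ± 44.0, n = 4) and 1872, 1927, 2087 and 1825 in the Etv5 knockdown (mean 1928 ± 114, n = 4), with every knockdown array below every control array. The Pou3f1 knockdown arrays, at 2270.1, 2160.1, 2284 and 2051 (mean 2191 ± 108), lay on both sides of control. Replicate 1 of the Bcl6b knockdown read 2909, the highest of all 16, and the other 3 arrays 1989, 2279 and 2115. With 15 arrays Sall4 fell by 0.18 ± 0.049 log2 in the Etv5 knockdown (a change of -11.9%, 95% interval -0.29 to -0.08, limma adjusted p = 0.0325). The adjusted p was 0.585 with 16 arrays and 0.0363 with the Etv5 knockdown and control arrays alone, and the 15-array call held in 8 of 15 further leave-outs (adjusted p = 0.0102 to 0.0935), ending without any 1 of the 4 control arrays or Etv5 knockdown replicate 1, 2 or 4. The Pou3f1 knockdown differed from control by 0.00 with a 95% interval of -0.10 to 0.11, and the Bcl6b knockdown by -0.04 with an interval of -0.15 to 0.07 (both with 15 arrays). From high to low the order was Pou3f1 knockdown, control, Bcl6b knockdown and Etv5 knockdown. The nearest step to the Etv5 knockdown, from the Bcl6b knockdown, had an adjusted p of 0.155. With limma's array weights on all 16 arrays, Sall4 in the Etv5 minus Bcl6b knockdown was -0.171 (adjusted p = 0.0249). Both Sall4 probe sets were called in that fit. The dimmer probe set 1424153_s_at, whose suffix marks probes shared between related transcripts, gave -0.18 in the Etv5 knockdown with an interval of -0.40 to 0.04 (adjusted p = 0.332). It read 206, 251, 273 and 216 there against 263 to 272 in control, so the groups overlapped. In the Bcl6b knockdown it lay above control on all 4 arrays, at 773 on replicate 1 and at 276 to 339 on the others, and the difference of 0.17 with 15 arrays was not called (adjusted p = 0.341).

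Bmi1, the Polycomb subunit, was also lower in the Etv5 knockdown. The probe set 1417493_at read 3510.0, 3246, 3211 and 3313 in control (mean 3320.2 ± 133, n = 4) and 3096, 3028, 2966 and 2983 in the Etv5 knockdown (mean 3018 ± 58.2, n = 4). No Etv5 knockdown array reached the lowest control array. The Pou3f1 knockdown read 3335, 3279.6, 3413 and 3643 (mean 3418 ± 160.2), and the Bcl6b knockdown 2111 on replicate 1 and 3273, 3101 and 3259 on the others. Bmi1 fell by 0.14 ± 0.038 log2 in the Etv5 knockdown with 15 arrays (a change of -9.04%, interval -0.22 to -0.06, limma adjusted p = 0.0363). The adjusted p was 0.864 with 16 arrays and 0.0424 with the Etv5 knockdown and control arrays alone, and 8 of 15 further leave-outs kept the 15-array call (adjusted p = 0.0156 to 0.121), which ended without control replicate 1, 2 or 4 or any 1 of the 4 Etv5 knockdown arrays. Against control the Bcl6b knockdown was at -0.05 (interval -0.13 to 0.04) and the Pou3f1 knockdown at 0.04 (interval -0.04 to 0.12), neither called. Its order was that of Sall4, Pou3f1 knockdown, control, Bcl6b knockdown and Etv5 knockdown, and again no neighbouring groups passed the test (adjusted p = 0.254 for the last step). The second Bmi1 probe set, 1448733_at, gave the same difference of -0.14 in the Etv5 knockdown with a wider interval of -0.27 to -0.0044 (adjusted p = 0.209), and its groups overlapped, at 1486 to 1708 against 1692 to 1866.

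Lin28a was read from 1 usable probe set, 1437752_at. The control arrays read 1567, 1635, 1590.2 and 1543 (mean 1584 ± 39.2, n = 4), the Etv5 knockdown arrays 1917, 1594, 1892 and 1749.8 (mean 1788 ± 149) and the Pou3f1 knockdown arrays 1699.7, 1621, 1871 and 1645 (mean 1709 ± 113). In the Bcl6b knockdown replicate 1 read 1852 and the other arrays 1466, 1478 and 1456 (mean of the 3, 1467 ± 10.6), all 3 below the lowest control array. Against control Lin28a did not pass the test in any knockdown with 16 or 15 arrays given equal weight, and with array weights on all 16 it was higher in the Etv5 knockdown by 0.208 (adjusted p = 0.00954). With 15 arrays the differences were 0.17 in the Etv5 knockdown (interval 0.06 to 0.29, limma adjusted p = 0.0701), 0.11 in the Pou3f1 knockdown (interval -0.01 to 0.22, adjusted p = 0.244) and -0.11 in the Bcl6b knockdown (interval -0.24 to 0.01, adjusted p = 0.235). With 16 arrays the Bcl6b value was -0.03. The order over 15 arrays was Etv5 knockdown, Pou3f1 knockdown, control and Bcl6b knockdown, with no called step between neighbours. The other Lin28a probe set, 1421749_at, had 6.62 to 10.6 on all 16 arrays, where the array medians were 15.6 to 17.1, and was not tested.

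Taf4b showed no difference in any knockdown that passed the test. Its brightest probe set, 1435303_at, read 1641, 1649, 1691 and 1764 in control (mean 1686 ± 56.6, n = 4), 1662, 1639, 1747 and 1726 in the Etv5 knockdown, and 1772, 1844, 1837 and 1594 in the Pou3f1 knockdown. The Bcl6b knockdown read 2146 on replicate 1 and 1693, 1796 and 1686 on the other 3. Leaving replicate 1 aside, the groups overlapped throughout. With 15 arrays the intervals of the log2 difference against control were -0.09 to 0.10 for Etv5, -0.07 to 0.14 for Bcl6b and -0.03 to 0.16 for Pou3f1. At this probe set a change of more than 0.16 in either direction thus lay outside all 3. The order of the means was Pou3f1, Bcl6b and Etv5 knockdown and then control, with no called step between neighbours. Its second probe set, 1435302_at, differed from control by 0.01, 0.00 and 0.07 in the Etv5, Bcl6b and Pou3f1 knockdowns with 15 arrays, and 1431193_at by 0.13, 0.11 and 0.12 in the same order, with adjusted p of 0.331, 0.373 and 0.336. The intervals of 1431193_at were wider, -0.03 to 0.28, -0.05 to 0.28 and -0.03 to 0.27, so the limit of 0.16 does not hold for it.

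**Figure D2:**
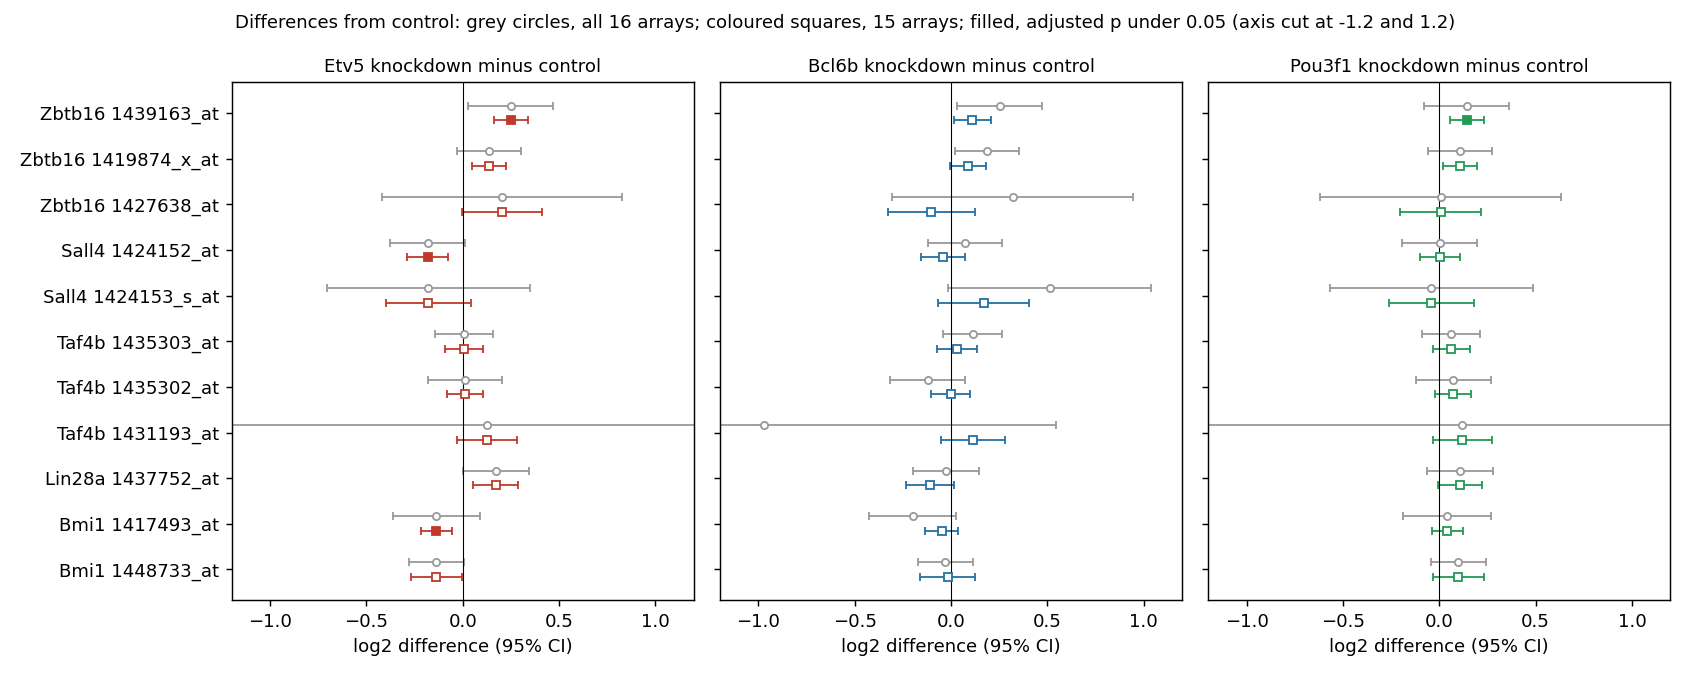
Log2 difference of each tested probe set against control in the 3 knockdowns, with limma's 95% interval, for all 16 arrays (grey circles) and for 15 arrays without Bcl6b knockdown replicate 1 (coloured squares, filled where the adjusted p was under 0.05). The 15-array intervals of the brightest probe sets of Zbtb16 (0.16 to 0.34), Sall4 (-0.29 to -0.08) and Bmi1 (-0.22 to -0.06) in the Etv5 knockdown lie off 0, those of the brightest Taf4b probe set span it, and the 16-array interval of Taf4b 1431193_at runs past the axis.

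The knockdowns were then set directly against each other. Bcl6b itself was lower than control in the Etv5 knockdown (-1.10) as well as in the Bcl6b knockdown (-1.01, both with 16 arrays). The Etv5 against Bcl6b comparison thus has low Bcl6b on both sides. With all 16 arrays limma called 0 of the 11 probe sets in each of the 3 pairs (3, 1 and 2 at an unadjusted p under 0.05 for Etv5 against Bcl6b, Etv5 against Pou3f1 and Bcl6b against Pou3f1 knockdown), beside 1.03%, 0.854% and 4.8% of all tested probe sets. With 15 arrays the counts were 1, 3 and 1, beside 3.7%, 4.54% and 9.25%. Arrays of the pair did not overlap for 1, 2 and 2 of 11 with 16 arrays, beside 8.22%, 9.93% and 12.8%, and for 5, 2 and 3 of 11 with 15, beside 15.2%, 9.94% and 20.4%. Lin28a separated the Bcl6b knockdown from both others. It was higher in the Etv5 than in the Bcl6b knockdown by 0.28 ± 0.059 (21.6% higher, adjusted p = 0.0132) and lower in the Bcl6b than in the Pou3f1 knockdown by 0.22 (adjusted p = 0.0271), with no overlap of arrays in either pair. With replicate 1 these values were 0.20 (adjusted p = 0.279) and -0.13 (adjusted p = 0.352). The first call also ended without Bcl6b knockdown replicate 2 (adjusted p = 0.0563), and the second held in 10 of 15 leave-outs (adjusted p = 0.00725 to 0.0827), ending without Bcl6b knockdown replicate 2, 3 or 4 or Pou3f1 knockdown replicate 1 or 3.

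Both Bmi1 probe sets were lower in the Etv5 than in the Pou3f1 knockdown, by 0.18 ± 0.038 (adjusted p = 0.0113) and 0.24 ± 0.062 (adjusted p = 0.0424) on the log2 scale with 15 arrays, with no overlap of arrays. For 1417493_at this call held in 15 of 15 further leave-outs, and with all 16 arrays the adjusted p were 0.761 and 0.181. Sall4 was likewise lower in the Etv5 than in the Pou3f1 knockdown by 0.19 (adjusted p = 0.0426 with 15 arrays, 0.617 with 16), although the highest Etv5 knockdown array, at 2087, lay above the lowest Pou3f1 knockdown array, at 2051, and 4 of 15 leave-outs kept the call (adjusted p = 0.0115 to 0.133). It ended without any 1 of the 4 control arrays, Etv5 knockdown replicate 1, 2 or 4, Pou3f1 knockdown replicate 1, 2 or 3 or Bcl6b knockdown replicate 4. For Zbtb16 none of the 3 direct comparisons passed the test with 16 or 15 arrays given equal weight. With limma's array weights on all 16 arrays it was higher in the Etv5 than in the Bcl6b knockdown by 0.158 (adjusted p = 0.0273), where the 15-array difference was 0.14 (adjusted p = 0.0964).

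The start of Bmi1 is shown because Bmi1 fell in the Etv5 knockdown with 15 arrays and ETV5 is an ETS factor that binds sites with the core GGAA. Zbtb16 and Sall4 were called there too, but the promoter set used here held no sequence for them. These are the 250 bases before the annotated start of Bmi1 in RefSeq GRCm38.p6, chr2:18676768-18677017 on the plus strand, 5′ to 3′, with each GGAA or its reverse complement TTCC in capitals.
Bmi1: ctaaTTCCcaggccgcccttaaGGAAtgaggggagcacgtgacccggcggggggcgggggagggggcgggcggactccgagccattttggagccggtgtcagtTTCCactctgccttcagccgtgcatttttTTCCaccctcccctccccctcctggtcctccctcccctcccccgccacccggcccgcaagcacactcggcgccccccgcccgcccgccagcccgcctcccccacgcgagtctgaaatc
Searched on both strands, GGAA matched 4 times. The same 4 letters occur in 93.4% of the 32851 promoters of this length, so a match does not set Bmi1 apart. The longer site CCGGAA, which contains the core, occurs in 12% of promoters and not in this window. The octamer ATGCAAAT, the classical site of POU factors such as POU3F1, occurs in 1.6% and not here. The GC box GGGCGG matched 6 times, counting overlapping matches. Of all promoters 32.7% hold at least 1 GC box and 0.886% hold 6 or more.

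The effect of Bcl6b knockdown replicate 1 was not the same for every probe set of a gene. Of the 12 probe sets, 9 lay outside the range of the other 15 arrays on it, 6 above and 3 below, where 69.4% of all tested probe sets lay outside (4.91% to 16.9% on any other array). On the log2 scale Zbtb16 was above the mean of the other 3 Bcl6b arrays at all 3 probe sets, by 0.57, 0.39 and 1.68, and Sall4 at both, by 0.45 and 1.36. Bmi1 was lower by 0.60 at 1417493_at and by 0.05 at 1448733_at. Taf4b went both ways. It was higher by 0.32 at 1435303_at and lower by 0.48 at 1435302_at. At 1431193_at its difference was -4.34, since replicate 1 read 11.2 and the other 15 arrays 206 to 279.7. A larger size was found for 0.858% of the tested probe sets. Over 16 arrays 1435303_at and 1431193_at had r = -0.793, and over 15 arrays r = 0.03. The 2 Bmi1 probe sets had r = 0.80 over 15 arrays and 0.47 over 16, and the 2 Sall4 probe sets 0.53 and 0.83. These correlations are descriptions over arrays that share groups.

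**Figure D3:**
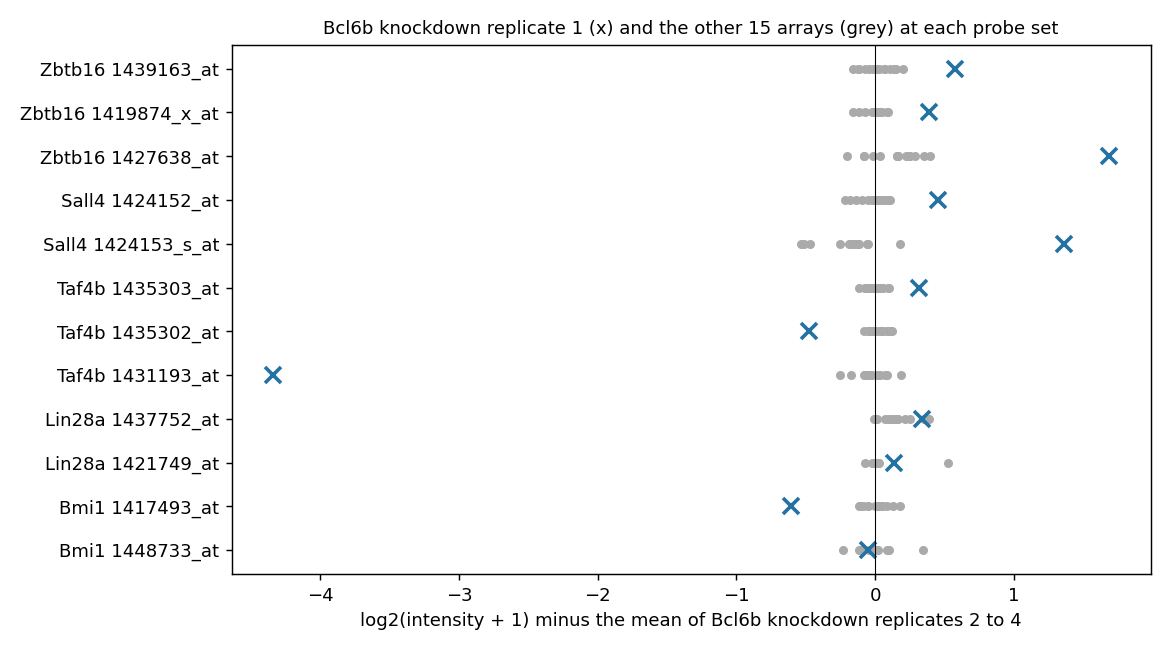
Log2(intensity + 1) of every array minus the mean of Bcl6b knockdown replicates 2 to 4 (horizontal axis) for each of the 12 probe sets, with Bcl6b knockdown replicate 1 as a cross and the other 15 arrays in grey. The Taf4b crosses span 0.32 to -4.34 between its 3 probe sets, and all Zbtb16 and Sall4 crosses lie above the grey points.

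Partners and targets of the 6 genes were described from lists of related genes, 1 probe set a gene, on the same 22836 tested probe sets (22769 with 15 arrays). Every list count below stands beside the share called over all of these. In the Etv5, Bcl6b and Pou3f1 knockdowns it was 1.26%, 3.98% and 1.36% with 16 arrays and 7.28%, 13.2% and 8.86% with 15. Among 19 SALL, ZBTB and NuRD genes, limma called 1 lower with 16 arrays in the Etv5 knockdown, Hdac1 (-0.19, adjusted p = 0.0449), a deacetylase of NuRD. With 15 arrays 3 were lower and none higher, with Sall3 (-0.59, adjusted p = 0.0201) and Zbtb7b (-0.44, adjusted p = 0.0295) beside Hdac1. The list's median difference was -0.09 and that of all tested probe sets -0.02. In the Bcl6b knockdown 1 of 19 was called, the BTB zinc finger gene Zbtb20, higher by 0.80 with 16 arrays (adjusted p = 0.0112) and by 0.65 with 15 (adjusted p = 0.00305), and in the Pou3f1 knockdown 0 of 19 were called either way (2 and 3 at an unadjusted p under 0.05).

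For the 21 Polycomb genes around Bmi1, 0 were called with 16 arrays in each of the 3 knockdowns by limma (2, 0 and 1 at an unadjusted p under 0.05 for Etv5, Bcl6b and Pou3f1). With 15 arrays Rnf2, which encodes the ubiquitin ligase that BMI1 assists, rose by 0.16, 0.15 and 0.22 in that order (adjusted p = 0.00297, 0.00863 and 0.000209). Bmi1 and Rnf2 therefore had opposite signs in the Etv5 knockdown. There Pcgf3, a relative of Bmi1, rose by 0.22 (adjusted p = 0.00317) and the methyltransferase gene Ezh2 fell by 0.17 (adjusted p = 0.0364). The chromobox gene Cbx2 fell by 0.24 in the Bcl6b knockdown and Phc3 by 0.23 in the Pou3f1 knockdown (adjusted p = 0.0251 and 0.022). In all, 3, 2 and 2 of the 21 were called in the Etv5, Bcl6b and Pou3f1 knockdowns, beside 7.28%, 13.2% and 8.86% of all tested probe sets. The Bcl6b and Pou3f1 counts were thus near or below the shares of all probe sets. The list medians were -0.05, -0.04 and 0.00.

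Among the 16 TFIID subunits 0 were called with 16 arrays by limma in each knockdown (2, 4 and 1 at an unadjusted p under 0.05). With 15 arrays Taf13 was higher in all 3, by 0.22, 0.17 and 0.25 (adjusted p = 0.00262, 0.0154 and 0.000774), while Taf4b itself was not called. In the Etv5 knockdown Taf7l rose by 0.16 and Taf11 fell by 0.18 (adjusted p = 0.0111 and 0.0357), and Taf6 fell by 0.15 in the Bcl6b knockdown (adjusted p = 0.0298). The counts were 3, 2 and 1 of 16, beside 7.28%, 13.2% and 8.86% of all tested probe sets, and the list medians -0.04, -0.03 and -0.01. In the Bcl6b and Pou3f1 knockdowns the counts were thus near or below the shares of all probe sets.

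LIN28A acts on let-7 microRNAs, whose shared seed decides which messages they bind. The array does not measure mature microRNAs. Mature names that carry the same seed number 11 in RefSeq GRCm38.p6, and 3 are printed to show what members share and where they differ, with bases 2 to 8 in capitals, 5′ to 3′.
mmu-let-7a-5p: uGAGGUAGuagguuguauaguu
mmu-let-7g-5p: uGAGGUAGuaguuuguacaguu
mmu-miR-98-5p: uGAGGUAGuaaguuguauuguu
Of 13 tested LIN28 and let-7 target genes, limma called 1 with 16 arrays in the Etv5 knockdown, Nras (-0.23, adjusted p = 0.0436), 0 in the Bcl6b knockdown (4 at an unadjusted p under 0.05), and 1 in the Pou3f1 knockdown, Hmga2, a chromatin protein gene with let-7 target sites (-0.48, adjusted p = 0.00366). With 15 arrays 2, 3 and 2 of 13 were called, beside 7.28%, 13.2% and 8.86% of all tested probe sets, and all were lower. They included Igf2bp1 in the Etv5 knockdown (-0.24, adjusted p = 0.0133), Igf2bp3 (-0.34, adjusted p = 0.00492), Arid3b (-0.34, adjusted p = 0.00575) and Hmga2 (-0.29, adjusted p = 0.0111) in the Bcl6b knockdown, and Tut7, whose enzyme adds uridine to pre-let-7, in the Pou3f1 knockdown (-0.17, adjusted p = 0.0144). The list medians were -0.02, -0.14 and -0.12, beside -0.02, -0.03 and -0.02 over all tested probe sets. Lin28a lay above control by 0.11 in the Pou3f1 knockdown and below it by 0.11 in the Bcl6b knockdown, neither called, while Hmga2 was lower in both. Lin28b did not pass the filter.

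Nanos2 itself was not analysed here, but 18 genes of its family, its partners and the messages it is known to bind were tested. With 16 arrays 2 were higher in the Etv5 knockdown, and Cnot7, a deadenylase of the CCR4-NOT complex that NANOS2 recruits, was the 1 call in both other knockdowns. Cnot7 rose by 0.34, 0.35 and 0.36 (adjusted p = 0.000612, 0.000481 and 0.000376 for Etv5, Bcl6b and Pou3f1). Sohlh1, a transcription factor of spermatogonial differentiation, rose by 0.61 in the Etv5 knockdown (adjusted p = 0.00255). With 15 arrays 6, 3 and 1 of 18 were called, all higher, beside 7.28%, 13.2% and 8.86% of all tested probe sets. Taf7l rose by 0.16 in the Etv5 knockdown (adjusted p = 0.0111), and in the Bcl6b knockdown Cnot6 rose by 0.29 and Kit, the receptor that marks differentiating spermatogonia, by 0.18 (adjusted p = 0.00427 and 0.0491). The list's median was 0.13 in the Etv5 knockdown and 0.01 in each of the others, against -0.02, -0.03 and -0.02 over all tested probe sets with 15 arrays.

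For contrast with genes that do answer to GDNF, 13 such genes were tested with the knockdown's own target left out. In the Etv5 knockdown 4 were lower and none higher with 16 arrays, among them Bcl6b (-1.10, adjusted p = 0.000214), Lhx1 (-1.33, adjusted p = 0.00464) and Nefm (-0.56, adjusted p = 0.00906), and 6 with 15 arrays. The median over all 13, called or not, was -0.30, and that over the 11 tested probe sets of the 6 genes was 0.01. The 3 calls among the 6 genes with 15 arrays had sizes of 0.14 to 0.25, in both directions. In the Bcl6b and Pou3f1 knockdowns 1 of 13 was called, Ret, the GDNF receptor kinase, which was higher by 0.35 and 0.38 (adjusted p = 0.00685 and 0.00604 with 16 arrays). The list was drawn up with earlier results of these data known, so its direction is no independent evidence.

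Among 20 other genes of undifferentiated spermatogonia, 1 was higher and 2 lower in the Etv5 knockdown with 16 arrays, Sox3 (0.74, adjusted p = 0.0336), Mcam (-0.49, adjusted p = 0.0394) and Plvap (-1.30, adjusted p = 0.00347), and 4 and 5 with 15 arrays. The list therefore held calls in both directions, as Zbtb16 and Sall4 did, and its median was 0.00. In the Bcl6b knockdown 0 of 20 were called by limma with 16 and with 15 arrays (1 and 0 at an unadjusted p under 0.05), and in the Pou3f1 knockdown 1 with 15 arrays, Sox3 (0.25, adjusted p = 0.0239), and 0 with 16 (2 at an unadjusted p under 0.05). Of 16 genes of spermatogonial differentiation, 1 rose in the Etv5 knockdown with 16 arrays, Sohlh1, and 2 with 15, Sohlh1 and Kit (0.19, adjusted p = 0.0337). In the other knockdowns the list had 0 calls with 16 arrays (1 and 2 at an unadjusted p under 0.05), and with 15 arrays 1 for Bcl6b, Kit, and 0 for Pou3f1 (5 at an unadjusted p under 0.05).

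**Figure D4:**
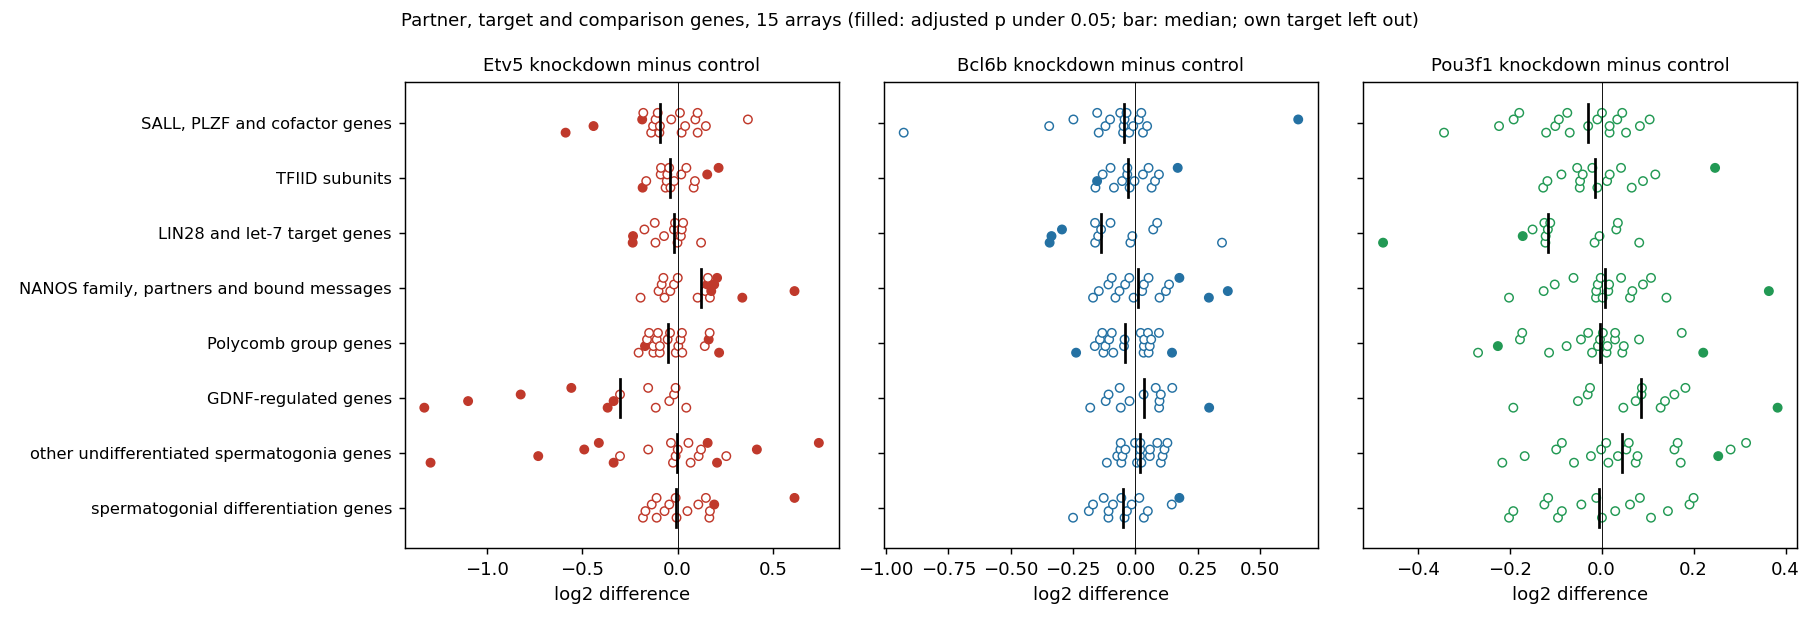
Log2 difference against control of every tested gene of the 8 lists in the 3 knockdowns with 15 arrays (horizontal axis, its range differs between panels), 1 point a gene, filled where the adjusted p was under 0.05, with a bar at the list's median. The GDNF-regulated genes reach -1.33 in the Etv5 knockdown with a median of -0.30, and the NANOS list has its median at 0.13 there.

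Genes whose pattern was most like that of each member were found by Pearson r of log2 values over 15 arrays among 11120 genes with 1 probe set each. They were Ahr (0.913) and Zzz3 (0.909) for Zbtb16, Sez6 (0.939) and Pdzd2 (0.935) for Sall4, Supv3l1 (0.917) and Rec114 (0.851) for Taf4b, Dock1 (0.843) and Chst1 (0.835) for Lin28a, and Qtrt2 (0.917) and Commd1 (0.896) for Bmi1. With replicate 1 included the r for the leading gene became 0.554, 0.554, -0.292, 0.642 and 0.149 in that order. The points share 4 groups and 1 array platform, so these values are descriptions.

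The cultures' cell types were checked with marker lists. All 10 germ cell markers, Ddx4 and Dazl among them, lay above the array median on every array, and their summed intensity was 41560 to 42304 in control and 40777 to 42684 in the Etv5 knockdown, overlapping ranges. All 12 fibroblast and feeder markers did too, with sums of 177950 to 179513 in control, 186467 to 195252 in the Etv5, 178593 to 189318 in the Bcl6b (184599 to 189318 without replicate 1) and 180689 to 186525 in the Pou3f1 knockdown. Without that replicate the fibroblast sum lay above every control array in all 3 knockdowns. Mean Zbtb16 at 1439163_at was also above control in all 3, by 0.25, 0.11 and 0.14 in the Etv5, Bcl6b and Pou3f1 knockdowns. Of these the Bcl6b difference was not called. Sall4 and Bmi1 were called lower in the Etv5 knockdown. A sum weighs each marker by its intensity, and the single markers did not all rise. By limma with 15 arrays 3, 2 and 2 of the 12 were called higher in the Etv5, Bcl6b and Pou3f1 knockdowns. In the same order 0, 0 and 2 were called lower, and the list medians were 0.03, 0.004 and -0.03. The part of the fibroblast sum in these results was not tested. Of 10 Sertoli cell markers 8 were below the array median on every array, the defining markers Wt1, Gata4 and Amh among them. Their sums were 2124 to 2244 in control and 1887 to 1977 in the Etv5 knockdown. In the Bcl6b knockdown they were 1934 to 2038.5 (1934 to 1993 without replicate 1), also below every control array. In the Pou3f1 knockdown they were 1893 to 2199. Of 8 endothelial markers 6, Pecam1, Cdh5 and Kdr included, were below it, with sums of 318 to 346 in control and 130 to 234 in the Etv5 knockdown. The other 2, Plvap and Ramp2, were above it on every array. Both were called lower in the Etv5 knockdown by limma with 16 and with 15 arrays (median -1.19). Plvap also stands in the list of other undifferentiated spermatogonia genes above, and which cells of the cultures carried it was not tested. Of 9 macrophage markers 3 were below the array median on every array, Adgre1, Itgam and Cd74. The sums of 409 to 506 in control and 363 to 412 in the Etv5 knockdown overlapped. Of the 6 tested, limma called Mrc1 lower there with 16 arrays, and Mrc1 and Lyz2 with 15. None was called higher, and 1.26% and 7.28% of all tested probe sets were called. Of 6 Leydig cell markers 4 had a probe set. Cyp17a1 was below the median on every array, and the other 3 lay above it on every array. Their sums of 4608 to 4786 in control and 4412 to 4947 in the Etv5 knockdown overlapped. The part of these shifts in the results above was not tested.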

How the data were processed

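RNA of 16 samples of cultured cells was hybridised to 1-colour Affymetrix arrays, 4 in each of 4 groups taken from the sample titles. The deposited values are linear intensities per probe set, already normalized by the authors. Affymetrix Expression Console 1.1, MAS5, GCRMA and Partek 6.4 appear in the submitters' processing notes, with no role for each. A genome build is not given. No scanner files were used here, so probe-level background cannot be redone, and precision is limited by the 4 arrays a group.

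The 64 control probe sets were left out. Each of the other 45037 was given the gene that the platform annotation names, 1 gene for 34945, several for 932 and none for 9160, and only probe sets with 1 gene were named. Values were taken as log2(intensity + 1), which understates changes of dim probe sets. Probe sets with at least 4 arrays above their own array's median were fitted (22836, or 22769 without Bcl6b knockdown replicate 1) with limma 3.58.1 in R 4.3.3 (lmFit, eBayes with an intensity trend, all groups in 1 fit). Each of the 6 comparisons was adjusted over all its fitted probe sets (Benjamini-Hochberg, two-sided p, called under 0.05), and the code was tested on simulated data. Results turn on each gene's brightest probe set. From each list, up to 3 called genes a knockdown with the smallest p are named, together with the 2 genes most alike to each member. Members and lists were chosen with earlier results of these data known. Alternatives were another pseudocount, no filter, 1 probe set a gene, no trend, median centring, quantile normalization, array weights, a replicate block, only the groups compared and each array left out. Plots used Python 3.11.15 and matplotlib 3.10.9.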

Additional observations from a re-analysis of the deposited data

Results flagged for a closer look

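In groups of 4 arrays, the gap between an extreme array and its nearest neighbour was divided by the group's range and set against Dixon's critical value. Of 48 groups, 1 for each of 12 probe sets in 4 conditions, 8 passed it, and chance passes about 1 in 20. Of the 8, 5 were Bcl6b knockdown replicate 1, at Bmi1 1417493_at (0.877), Zbtb16 1419874_x_at (0.942), Taf4b 1431193_at (0.972) and 1435302_at (0.843) and Lin28a 1437752_at (0.94). That array's Actb 3′ minus 5′ value was 3.08, and the part of this in each gap was not tested. Control replicate 1 lay apart at Zbtb16 1427638_at (0.966). At the dim Lin28a probe set 1421749_at, control replicate 3 (0.833) and Pou3f1 knockdown replicate 4 (0.936) did, with intensities of 6.62 and 10.6.

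With 15 arrays 5 values differed between knockdowns by limma's direct test. Sall4 1424152_at in the Etv5 minus Pou3f1 knockdown was at -0.185. Lin28a 1437752_at was at 0.282 in the Etv5 minus Bcl6b knockdown and at -0.219 in the Bcl6b minus Pou3f1 knockdown. Bmi1 in the Etv5 minus Pou3f1 knockdown was at -0.178 for 1417493_at and -0.236 for 1448733_at.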

How the results depend on the processing

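With all 16 arrays the count of called probe sets of the 6 genes was 0 in each comparison, and it became 5 (Etv5 knockdown against control), 1 (Pou3f1 knockdown against control), 4 (Etv5 against Bcl6b), 3 (Etv5 against Pou3f1) and 1 (Bcl6b against Pou3f1 knockdown) with array weights, and 3 for the Etv5 knockdown against control with only the 2 groups compared in the fit. Array weights also called Lin28a higher in the Etv5 knockdown than in control (0.208, adjusted p = 0.00954). Leaving out each array in turn gave 0 to 3, 0 to 1, 0 to 1, 0 to 3 and 0 to 1 in that order, with the highest value without Bcl6b knockdown replicate 1. Bcl6b knockdown against control stayed at 0 in every setting run. Of the single log2 differences outside the leave-outs, 248 kept direction and side of the threshold, 13 passed it and 9 reversed. The reversed ones were not called with equal weights, 1 was called after reversing (Zbtb16 in Etv5 minus Bcl6b with array weights, adjusted p = 0.0273 by limma), and the cause was not tested. With median centring Taf4b in Etv5 knockdown minus control became -7.66e-05, Zbtb16 in Etv5 minus Bcl6b 0.0493 and Taf4b in Bcl6b minus Pou3f1 -0.0082. With array weights Sall4 in Bcl6b knockdown minus control became -0.0253, Zbtb16 and Bmi1 in Etv5 minus Bcl6b 0.158 and -0.0772, and Zbtb16, Sall4 and Taf4b in Bcl6b minus Pou3f1 -0.0512, -0.0401 and -0.0616. Leaving out 1 array turned the sign of Taf4b in Etv5 knockdown minus control (-0.00871 to 0.0284), Sall4 (-0.0409 to 0.142) and Lin28a (-0.111 to 0.00471) in Bcl6b knockdown minus control, Sall4 in Pou3f1 knockdown minus control (-0.0177 to 0.0338), Zbtb16 (-0.0769 to 0.139) and Bmi1 (-0.0889 to 0.122) in Etv5 minus Bcl6b, and Zbtb16 (-0.0334 to 0.183), Sall4 (-0.0434 to 0.139) and Taf4b (-0.0286 to 0.0874) in Bcl6b minus Pou3f1.

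Over all 16 arrays, same-numbered arrays did not deviate together more than others (24 pairs, r from -0.468 to 0.234, against -0.358 to 0.425 for 72 other pairs). The numbers were not taken as pairs. Bcl6b knockdown replicate 1 was in this check and moved the group mean of every Bcl6b array. The check was not repeated with 15 arrays, so it cannot decide whether the numbers mark batches. The replicate block left the count for the 6 genes at 0 in each comparison with 16 arrays, and it moved the count over all probe sets from 288 to 185, from 908 to 557 and from 236 to 155 in the Etv5 and Bcl6b knockdowns against control and Etv5 against Bcl6b. With 15 arrays, a setting chosen after seeing the data, Zbtb16 in the Etv5 knockdown kept its call under all 5 further settings (adjusted p from 0.000832 to 0.00392 by limma). Sall4 in Etv5 knockdown minus control and minus Pou3f1 lost it with median centring (adjusted p = 0.0594 and 0.069), Bmi1 in Etv5 knockdown minus control with quantile normalization (0.0675) and Zbtb16 in Pou3f1 knockdown minus control with the replicate block (0.0595). Over all probe sets, array weights gave 2548, 4445 and 2609 calls in the Etv5, Bcl6b and Pou3f1 knockdowns against control, where the counts were 288, 908 and 311. Dim probe sets limit what the arrays can show for Lin28a 1421749_at.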
